A study of Mus musculus with 24 samples.

Results

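The comparison described here is the difference between 2 medium responses of N1E-115 cells, a mouse neuroblastoma line used as a neuronal model. The response of the OT line is OT-d minus OT-p and the response of untransfected WT cells is WT-d minus WT-p, and the response difference is the first minus the second. It used 16 of the 24 samples of the series, 4 in each of the 4 groups, picked by sample title. OT-d were cells carrying the OT construct in differentiation medium with 2.5% fetal calf serum and 1.25% DMSO. OT-p were the same line in proliferation medium with 10% serum and no DMSO stated. WT-d and WT-p were the untransfected cells in these same media. In the OT construct the C-terminal part of transcobalamin, the blood carrier of cobalamin (vitamin B12), is fused to oleosin, a plant oil-body protein, and the design text reports no detectable cobalamin binding for it. RNA of each sample was labelled with 1 dye from 0.2 µg and hybridized on 2-colour Agilent arrays, 2 samples an array. Of the 27597 gene names on the array, 16240 were tested.

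N1E-115 cells come from the sympathoadrenal lineage. In medium with little serum and with DMSO they are known to leave the cell cycle, extend neurites and raise neuronal and transmitter genes. A response difference therefore compares how far the 2 lines moved between the same media, whatever their levels were in either medium. OT cells differ from WT cells by the fusion protein and also by having been transfected and grown as a separate line, and these cannot be told apart. The design text calls the replicates biological, but the labels give neither the number of cultures behind them nor whether the OT line holds more than 1 clone. The p-values therefore cover no more than the scatter among these libraries, which may be technical. In bulk RNA, fewer cells of a type and less RNA per cell cannot be told apart.

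WT-p samples were not alike, which touches every result below. On the first principal component of the 16 samples, WT-p replicates 1 to 4 lay at 50.6, 26.4, 48.4 and 32.9, OT-p samples between 60.4 and 61.7, OT-d samples between -44.5 and -37.5, and WT-d samples between -63.0 and -50.1. WT-p replicates 1 and 3 carry description numbers that differ only by a letter b, as do WT-d 2 and 4, OT-d 2 and 4, and OT-p 2 and 4, and the labels do not say whether such a pair shares an extract. WT-d 2 deviated most from its group mean across genes (SD of the deviations 0.253, against 0.100 to 0.227 in the other 15 samples). All 20 neuroblastoma markers were well above background in all 16 samples, while Ptprc, Itgam, Tyrobp and Cdh5 of blood and endothelium, and Slc1a3, Mog and Olig1 of glia, were so in none.

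The response differed between the lines at an adjusted p under 0.05 (limma, Benjamini-Hochberg) in 5641 genes, 34.7% of those tested. In 3290 genes (20.3%) the OT response was higher than the WT response and in 2351 (14.5%) it was lower, and 398 of the higher and 165 of the lower genes differed by over 2-fold. A higher value does not mean a rise in OT cells, since a smaller fall counts as higher too. Counts of list members given below are to be read against these shares of 20.3% higher and 14.5% lower. Of the called genes, 1592 (28.2%, against 26.4% of all genes tested) responded the same way in both lines and more strongly in OT cells. Another 1116 (19.8% against 23.7%) responded the same way and less strongly, so that both shares were near those of all genes. The response passed the test in OT cells alone in 1320 (23.4% against 14.4%) and in WT cells alone in 1103 (19.6% against 13.7%). Opposite directions were seen in 447 (7.9% against 2.8%). In the remaining 63 neither response passed. All 447 tested genes with called responses in opposite directions were also called in the difference. A call in the difference selects for unlike responses, so the larger shares of the OT-alone, WT-alone and opposite classes were partly fixed in advance. Without WT-p replicates 1 and 3, 5842 genes were called (36%), and 4769 of the 5641 were called again in the same direction. The median response difference over all genes tested was 0.00 on the log2 scale.

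**Figure D1:**
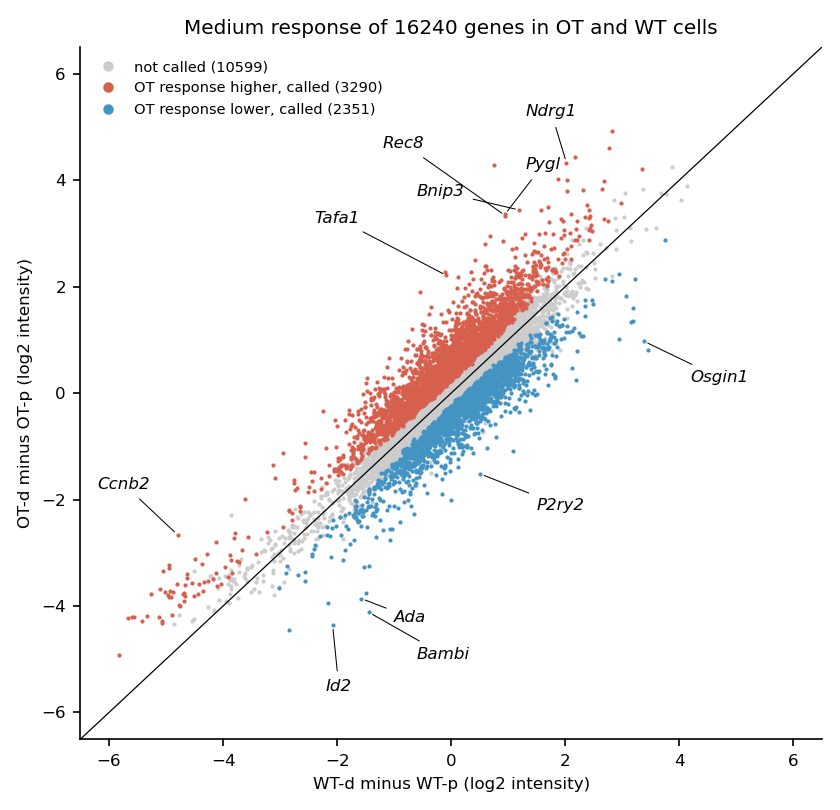
Medium response of each of the 16240 genes tested, as differences of log2 intensity: OT-d minus OT-p on the vertical axis, WT-d minus WT-p on the horizontal axis, with the line of equal response. Genes called higher in OT (3290) lie above the line and those called lower (2351) below it, and Ccnb2, which fell in both lines, is among the higher because it fell less in OT.

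The genes described first had a symbol, were well above background in at least 3 samples of each group, were called with and without WT-p replicates 1 and 3, and were among those with the largest positive response differences. Pygl (probe on chromosome 12 at 71109473 to 71109532 of mm8), the liver form of glycogen phosphorylase, had normalized log2 intensities of 13.77, 13.95, 14.30 and 14.06 in OT-d and 10.46, 10.64, 10.80 and 10.84 in OT-p, against 13.61, 14.01, 13.90 and 13.71 in WT-d and 12.17, 13.73, 12.27 and 13.47 in WT-p. Its OT-d and WT-d levels overlapped, while OT-p was below WT-p in every sample. Pygl rose by 3.36 in OT cells and by 0.94 in WT cells, and its response difference was 2.42 ± 0.34 (SE; 5.34-fold; limma adjusted p = 9.85e-06), and 3.11 without WT-p replicates 1 and 3.

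Rec8 (chromosome 14, 54579394 to 54579453), a meiotic cohesin subunit, was at 15.11, 14.96, 15.17 and 15.27 in OT-d and 11.85, 11.80, 11.98 and 11.83 in OT-p, against 13.87, 13.96, 14.32 and 14.15 in WT-d and 12.73, 13.56, 12.75 and 13.48 in WT-p. The lines thus changed order, with OT-d above WT-d and OT-p below WT-p in every sample, and the response difference was 2.38 ± 0.22 (adjusted p = 4.28e-08). Tafa1 (chromosome 6, 96622566 to 96622625), which encodes a secreted chemokine-like protein of the nervous system, rose by 2.21 in OT cells, while its WT response of -0.08 did not pass the test. Its 3 probes gave response differences from 0.88 to 2.29. Fam170a responded by 2.27 in OT cells and by -0.11 in WT cells, for a difference of 2.38 ± 0.23. It was the only one of the 11 genes given here with large positive values in which WT-p replicates 2 and 4 were both below replicates 1 and 3, whereas in the other 10 both were above them.

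Ndrg1, St3gal1, Bnip3, Cyp2s1, Selenbp1 and Selenbp2 make up the rest of these genes together with Ccnb2. Ndrg1, a stress-induced gene raised by low oxygen, was at 12.61, 13.08, 13.60 and 13.12 in OT-d and 8.75, 8.84, 8.88 and 8.85 in OT-p, against 13.41, 13.63, 13.42 and 13.56 in WT-d and 10.84, 12.18, 10.80 and 12.28 in WT-p. Bnip3, a mitophagy receptor of the outer mitochondrial membrane, was at 14.03, 14.27, 14.30 and 14.29 in OT-d and 10.76, 11.10, 10.91 and 10.88 in OT-p, against 14.26, 14.30, 14.21 and 14.47 in WT-d and 12.63, 13.96, 12.58 and 13.94 in WT-p. For both genes the differentiation groups lay close together and the proliferation groups were separate, OT-p being the lower. The response differences were 2.31 ± 0.40 for Ndrg1 (adjusted p = 0.000126) and 2.24 ± 0.40 for Bnip3 (adjusted p = 0.000155), and 3.02 and 2.96 without WT-p replicates 1 and 3. St3gal1, a sialyltransferase, differed by 2.27 ± 0.44, and Cyp2s1, a cytochrome P450, by 2.16 ± 0.27. Selenbp1 and Selenbp2, whose sequences are close enough that their probes may share signal, differed by 2.27 ± 0.44 and 2.20 ± 0.44. Without WT-p replicates 1 and 3 they differed by 3.20 and 3.10. Their WT responses of 0.68 and 0.60 did not pass the test, but WT-p was split. Selenbp1 was at 11.17, 12.955, 11.23 and 13.11 in WT-p replicates 1 to 4, against 12.68 to 12.78 in WT-d. Selenbp2 was at 10.91, 12.67, 10.90 and 12.68 in these WT-p replicates.

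**Figure D2:**
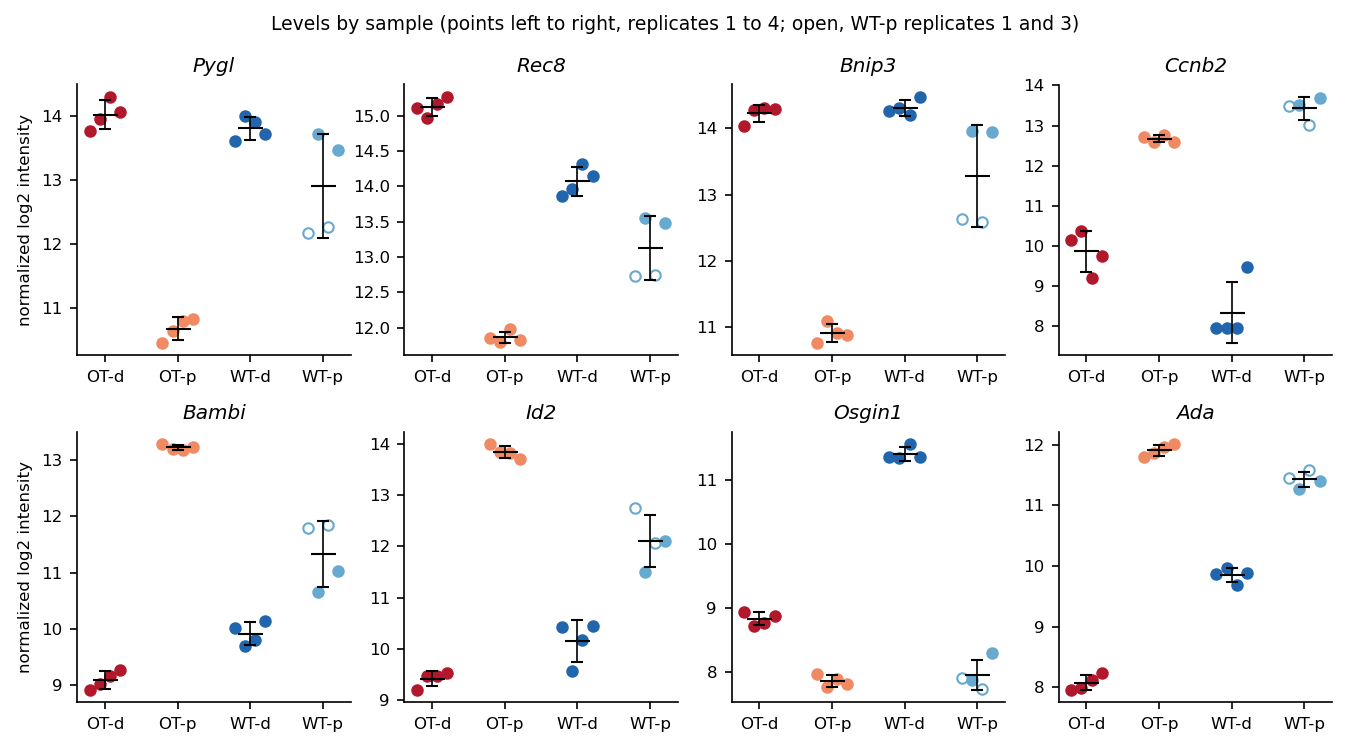
Normalized log2 intensity of 8 genes in each sample of OT-d, OT-p, WT-d and WT-p, replicates 1 to 4 from left to right, with mean and SD (n = 4); open points are WT-p replicates 1 and 3. Pygl and Bnip3 lie lowest in OT-p, Bambi and Id2 highest in OT-p, and Osgin1 stands above the other groups in WT-d alone.

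Bnip3 and Pygl were both lowest in OT-p, and Bnip3 is on the glycolysis and hypoxia list. Genes of this kind are often bound by hypoxia-inducible factor at sites with the core ACGTG, so their promoters are shown, from 250 bases before to 50 after the start of the gene (RefSeq, GRCm38.p6, minus strand), with every match of ACGTG on either strand in capitals. The Bnip3 promoter is at chr7:138909457-138909756 and the Pygl promoter at chr12:70227634-70227933.
Bnip3: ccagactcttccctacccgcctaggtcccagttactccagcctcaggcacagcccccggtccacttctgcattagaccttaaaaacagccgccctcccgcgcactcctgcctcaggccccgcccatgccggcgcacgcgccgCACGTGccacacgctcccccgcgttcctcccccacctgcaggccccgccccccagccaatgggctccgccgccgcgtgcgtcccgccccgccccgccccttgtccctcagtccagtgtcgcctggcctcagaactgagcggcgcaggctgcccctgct
Pygl: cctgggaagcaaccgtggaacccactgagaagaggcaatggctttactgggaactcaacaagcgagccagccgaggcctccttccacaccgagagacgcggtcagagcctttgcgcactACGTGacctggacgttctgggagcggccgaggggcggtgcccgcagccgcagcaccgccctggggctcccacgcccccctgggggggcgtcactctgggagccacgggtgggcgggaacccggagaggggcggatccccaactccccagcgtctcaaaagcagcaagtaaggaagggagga
In Bnip3 the 2 matches overlap as CACGTG, which is also the E-box bound by Myc and related factors, and Pygl has 1 match. ACGTG stood in 22 of the 37 promoters found for the list (59.5%), against 6447 of all 32851 promoters (19.6%). This share covers tested members whether called or not, so it describes the list and not the response difference. The share of all promoters, here and below, counts every promoter of the RefSeq annotation, those of untested genes included.

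The glycolysis and hypoxia list had 40 members tested, with a median response difference of 0.34. Of them 17 were called higher (42.5%) and 5 lower (12.5%), against 20.3% and 14.5% of all genes. Without WT-p replicates 1 and 3 these were 25 and 5, with a median of 0.59, and without WT-d 2 and WT-p 2 they were 11 and 6, with a median of 0.21. The list turned on the proliferation groups: its median difference between the lines was -0.60 for OT-p minus WT-p and -0.12 for OT-d minus WT-d, while both medians were -0.02 over all genes. The median level of the members was 12.7 to 13.2 in OT-d, 11.3 to 11.4 in OT-p, 13.4 to 13.7 in WT-d, and 11.86, 12.59, 12.03 and 12.37 in WT-p replicates 1 to 4. In 32 of the 40 members WT-p replicates 2 and 4 were both above replicates 1 and 3, as they were in 28.0% of all genes tested, and in 25 members all OT-p samples were below WT-p replicates 1 and 3 too.

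Members of this list did not all move one way. Aldoc, a glycolytic aldolase, differed by 1.76 ± 0.49 at its brighter probe (adjusted p = 0.00724) and its second probe gave -0.32. Without WT-d 2 and WT-p 2, the Aldoc value was 1.09 with adjusted p = 0.0771. Ddit4, an inhibitor of mTORC1 signalling induced by stress, differed by 1.62 ± 0.45 (adjusted p = 0.00774), and by 1.52 with adjusted p = 0.0951 without the samples numbered with b. Vegfa, the angiogenic growth factor, went the other way. It was at 11.61, 11.72, 12.02 and 11.77 in OT-d and 11.95, 11.87, 11.87 and 11.96 in OT-p, against 14.25, 13.30, 13.66 and 14.36 in WT-d and 12.03, 12.63, 12.19 and 12.44 in WT-p. WT-d was above all other samples, and Vegfa rose by 1.51 in WT cells while the OT response of -0.02 did not pass, a response difference of -1.53 ± 0.26 (adjusted p = 9.63e-05), with its 3 probes between -1.53 and -0.42.

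**Figure D3:**
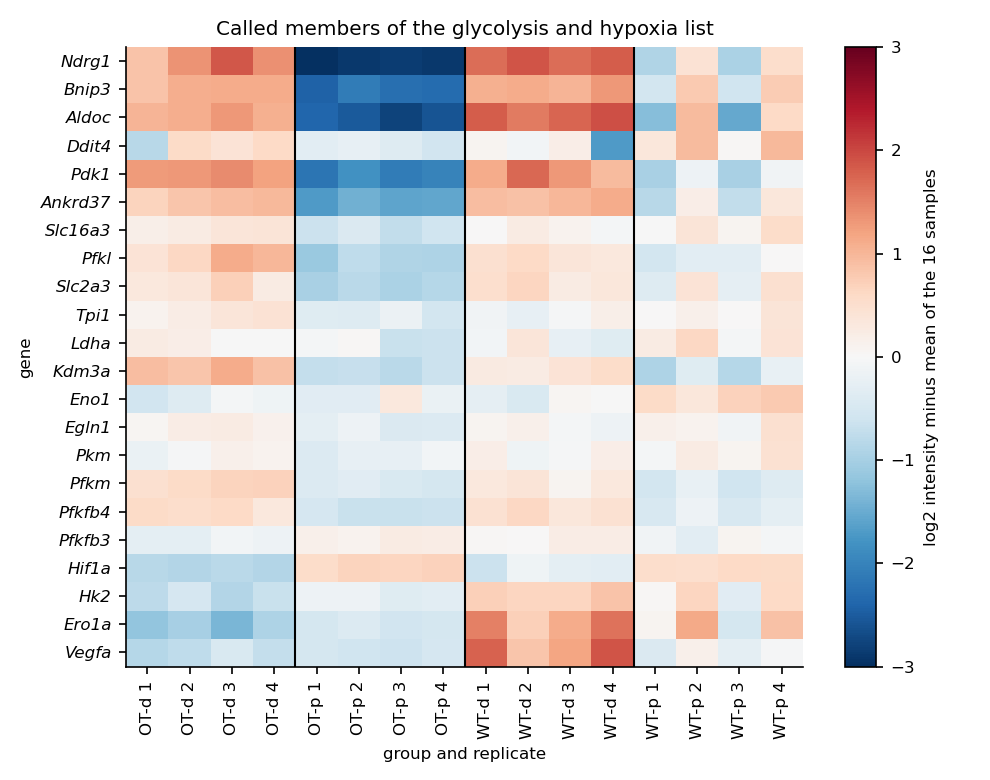
Levels of the 22 called members of the glycolysis and hypoxia list in the 16 samples, as log2 intensity minus the gene's mean over these samples, by group and replicate. Ndrg1, Bnip3 and Aldoc are lowest in OT-p and higher in WT-p 2 and 4 than in WT-p 1 and 3, and Vegfa is highest in WT-d.

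Genes of mitosis fell in both lines, and those called higher fell less in OT cells. Ccnb2 (chromosome 9, 70207028 to 70207087), a B-type cyclin of mitotic entry, was at 10.14, 10.38, 9.21 and 9.74 in OT-d and 12.72, 12.60, 12.77 and 12.60 in OT-p, against 7.96, 7.97, 7.97 and 9.48 in WT-d and 13.49, 13.51, 13.03 and 13.70 in WT-p. It fell by 2.66 in OT cells and fell by 4.80 in WT cells (response difference 2.14 ± 0.42, adjusted p = 0.000373), and WT-d 4 alone reached the range of OT-d. Mki67, the proliferation antigen Ki-67, was at 9.02, 9.22, 9.10 and 9.14 in OT-d and 13.32, 13.32, 13.48 and 13.32 in OT-p, against 7.28, 7.49, 7.35 and 8.18 in WT-d and 12.80, 13.58, 13.02 and 13.71 in WT-p. Here OT-d was above WT-d in every sample and the proliferation groups overlapped, with a response difference of 1.40 ± 0.23 (adjusted p = 6.72e-05), and 0.74 at the second Mki67 probe. Cenpf, a kinetochore protein, differed by 1.66 (0.33 at its second probe), Ccna2, cyclin A2, by 1.48, and Ccnb1, cyclin B1, by 1.37.

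Of the 53 mitosis and G2/M genes tested, 25 were called higher (47.2%) and 2 lower (3.8%), against 20.3% and 14.5% of all genes. Their median was 0.60, or 0.44 without WT-p replicates 1 and 3. The lines differed in differentiation medium, where the median difference between OT-d and WT-d was 0.82, and little in proliferation medium, where it was 0.15 for OT-p minus WT-p. The count changed with the processing, with 39 called higher and a median of 1.45 from the processed signal of the scanner software, which differs in background correction and in normalization, and 14 called higher with the marked local backgrounds as given (median 0.61). Of the 53 DNA replication and G1/S genes, 7 were called higher and 10 lower, with a median of -0.04. Without WT-p replicates 1 and 3 these were 4 and 12, with a median of -0.19, and relative to all genes the median was -0.05 with loess alone and 0.02 with quantile normalization. Cenpq (chromosome 17, 40387006 to 40387065), a centromere protein, opposed the mitosis genes. It was at 8.18, 8.13, 8.34 and 8.33 in OT-d and 11.60, 11.47, 11.35 and 11.52 in OT-p, against 9.96, 9.89, 10.02 and 10.32 in WT-d and 11.35, 11.28, 11.67 and 11.52 in WT-p. OT-d lay below WT-d in every sample and the proliferation groups overlapped, so that Cenpq differed by -1.81 ± 0.12 (adjusted p = 8.17e-10). Pclaf, a PCNA-binding protein, and Aurka, a mitotic kinase, differed by 1.43 (adjusted p = 0.0234) and 1.15 (adjusted p = 0.0198), but both calls were lost without WT-p replicates 1 and 3 (adjusted p = 0.085 and 0.0853) and without WT-d 2 (adjusted p = 0.0714 and 0.0551).

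Promoters of G2/M genes are known for CCAAT boxes, bound by NF-Y, and for the cell cycle homology region TTTGAA. Those of Ccnb2 (chr9:70421505-70421804) and Mki67 (chr7:135716330-135716629) are shown from the same RefSeq table and on the minus strand of GRCm38.p6, with the matches of both motifs on either strand in capitals.
Ccnb2: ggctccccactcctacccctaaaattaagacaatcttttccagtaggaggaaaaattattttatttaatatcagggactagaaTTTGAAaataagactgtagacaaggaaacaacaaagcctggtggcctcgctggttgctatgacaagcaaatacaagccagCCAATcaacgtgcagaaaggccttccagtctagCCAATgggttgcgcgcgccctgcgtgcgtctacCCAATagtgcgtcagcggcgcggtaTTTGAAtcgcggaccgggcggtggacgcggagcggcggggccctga
Mki67: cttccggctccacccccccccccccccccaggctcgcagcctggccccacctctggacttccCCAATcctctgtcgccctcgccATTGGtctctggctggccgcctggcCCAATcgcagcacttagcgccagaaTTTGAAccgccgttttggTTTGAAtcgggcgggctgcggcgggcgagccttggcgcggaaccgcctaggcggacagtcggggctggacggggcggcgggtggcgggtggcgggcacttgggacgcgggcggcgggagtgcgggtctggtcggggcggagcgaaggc
Each holds 3 matches of CCAAT and 2 of TTTGAA, and none of these overlap. CCAAT was in 32 of the 44 promoters found for the list (72.7%) and in 37.4% of all promoters, and TTTGAA in 31 (70.5%) and in 17.9% of all. These shares, too, describe the list and not the response difference.

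Neuronal and sympathoadrenal genes made up the other large group with a higher response in OT cells. Of 40 genes of the neuronal cytoskeleton and growth cone, 24 were called higher and 2 lower (median 0.54), and of 20 neuroblastoma and sympathoadrenal markers 12 were called higher and none lower (median 0.60; 11 higher and 1 lower without WT-p replicates 1 and 3). Their median differences between the lines lay in differentiation medium, at 0.46 and 0.58 for OT-d minus WT-d. Dpysl3, a collapsin response mediator of the growth cone, was at 15.10, 15.04, 15.23 and 15.14 in OT-d and 15.03, 15.14, 15.12 and 15.07 in OT-p, against 13.46, 13.82, 13.72 and 13.74 in WT-d and 15.15, 15.23, 15.16 and 15.26 in WT-p. WT-d alone stood apart, below all other samples. Dpysl3 fell by 1.48 in WT cells, and its OT response of 0.04 did not pass the test (response difference 1.52 ± 0.094, adjusted p = 2.62e-10). Tuba1a, an alpha-tubulin of developing neurons, was also lowest in WT-d, with a response difference of 1.68 ± 0.20. Klc1, a kinesin light chain, differed by 1.60 ± 0.18, having risen in OT cells and fallen in WT cells. Kif21b, a kinesin, was one of the 2 lower members, at -1.38 ± 0.15, with its 3 probes between -1.38 and 0.07.

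Syn2, synapsin 2 of synaptic vesicles, was at 14.23, 14.15, 14.31 and 14.26 in OT-d and 12.80, 12.94, 12.93 and 12.89 in OT-p, against 12.59, 13.19, 12.79 and 12.63 in WT-d and 13.32, 13.42, 13.29 and 13.40 in WT-p. OT-d was above all other samples, WT-p above WT-d, and the response difference was 1.82 ± 0.12 (adjusted p = 3.65e-10). Of 42 synaptic vesicle and secretory granule genes, 18 were called higher and 4 lower (median 0.24). Unc13a, a vesicle priming protein, was the lower member with the largest value, at -1.35 ± 0.29, while its second probe gave 0.66. Sv2c, a vesicle glycoprotein, was higher by 1.32 ± 0.11. Of 45 axon guidance genes, 21 were called higher and 10 lower (median 0.22), and 20 and 11 without WT-p replicates 1 and 3 (median 0.14). The semaphorin receptor Plxnc1 differed by 1.74 and the repulsive guidance molecule Rgmb by 1.58, whereas Nrp2, a semaphorin and VEGF co-receptor, differed by -1.50 and the netrin receptor Unc5b by -1.29. The second probes of Plxnc1 and Rgmb gave 1.00 and 0.63. Plxna4, a plexin, was higher by 1.11 (adjusted p = 0.0147) and lost its call without WT-p replicates 1 and 3 (1.01, adjusted p = 0.0514), and its 3 probes ran from 0.07 to 1.11.

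Among transmitter enzymes, Ddc, which makes dopamine from L-DOPA, was at 11.21, 11.53, 11.58 and 11.47 in OT-d and 10.32, 10.27, 10.23 and 10.09 in OT-p, against 8.24, 8.51, 8.18 and 8.21 in WT-d and 8.74, 8.58, 8.64 and 8.93 in WT-p. OT samples were above WT samples in both media, and the distance was larger in differentiation medium (3.13) than in proliferation medium (1.51), giving a response difference of 1.62 ± 0.14 (adjusted p = 2.02e-08), while the second Ddc probe gave 0.67. Th, tyrosine hydroxylase, the first enzyme of catecholamine synthesis, was at 12.74, 12.84, 12.96 and 12.97 in OT-d and 11.70, 11.86, 11.83 and 11.77 in OT-p, against 12.31, 12.34, 12.24 and 12.15 in WT-d and 11.81, 11.996, 11.86 and 12.24 in WT-p. The 2 lines overlapped in proliferation medium and not in differentiation medium, and Th differed by 0.79 ± 0.11 (adjusted p = 1.21e-05). Cyb561, the cytochrome that regenerates ascorbate in chromaffin granules, differed by 1.77 ± 0.15. Ache, acetylcholinesterase, rose by 4.20 in OT cells and by 3.35 in WT cells, and the difference of 0.85 (adjusted p = 0.00899) was lost without WT-d 2 and WT-p 2 (0.57, adjusted p = 0.0962) and without the samples numbered with b (0.76, adjusted p = 0.0762). Of the 16 catecholamine and cholinergic genes tested, 9 were called higher and none lower (median 0.37). The lineage transcription factors Phox2a and Mycn rose in OT cells and fell in WT cells, with response differences of 1.34 and 1.26.

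Agtr2, the type 2 angiotensin receptor, was higher in the OT response (adjusted p = 7.1e-06), but only 1 of the 4 OT-p samples was well above background, so that the size of the difference is not given. Its levels were 11.57, 11.44, 11.23 and 11.33 in OT-d and 5.98, 7.76, 6.32 and 6.49 in OT-p, against 7.16, 8.71, 7.67 and 6.94 in WT-d and 7.05, 6.80, 6.57 and 6.86 in WT-p. OT-d lay above every other sample. Several other genes had no measurable level in a whole group and are given by level alone. 4930511A02Rik averaged 9.01 ± 0.11 in OT-d and 6.99 ± 0.09 in OT-p (SD, n = 4 each) and was well above background in no WT sample. Lyz2, lysozyme 2, averaged 9.35 ± 0.14 in OT-d, 6.21 ± 0.12 in OT-p and 7.46 ± 0.28 in WT-d (SD, n = 4 each). Only 2 of its OT-p samples and no WT-p sample were well above background. Myl1, a muscle myosin light chain, averaged 7.08 ± 0.22 in OT-d, 7.44 ± 0.12 in OT-p and 8.59 ± 0.28 in WT-p (SD, n = 4 each), and no WT-d sample was well above background.

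Lyz2 is also a marker of macrophages. Of the 9 blood and endothelial markers tested, 4 were called higher (44.4%) and 1 lower (11.1%), against 20.3% and 14.5% of all genes. Among the higher were the endothelial genes Flt1 (1.35 ± 0.18, and 0.73 at its second probe) and Vwf (0.90 ± 0.14). The summed intensity of the 20 markers on the array was 7297 to 8742 in OT-d and 2685 to 2938 in OT-p, against 6123 to 7017 in WT-d and 3310 to 4082 in WT-p. Only Fcer1g, Flt1, Vwf and Hba-a1 were well above background in all 16 samples, and the part of such cells in the result was not tested. None of the 11 glial markers tested was called (median 0.09), but without WT-p replicates 1 and 3 there were 3 called higher and none lower (median 0.21). Of the 13 fibroblast and smooth muscle markers 3 were called higher and 3 lower (23.1% each).

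**Figure D4:**
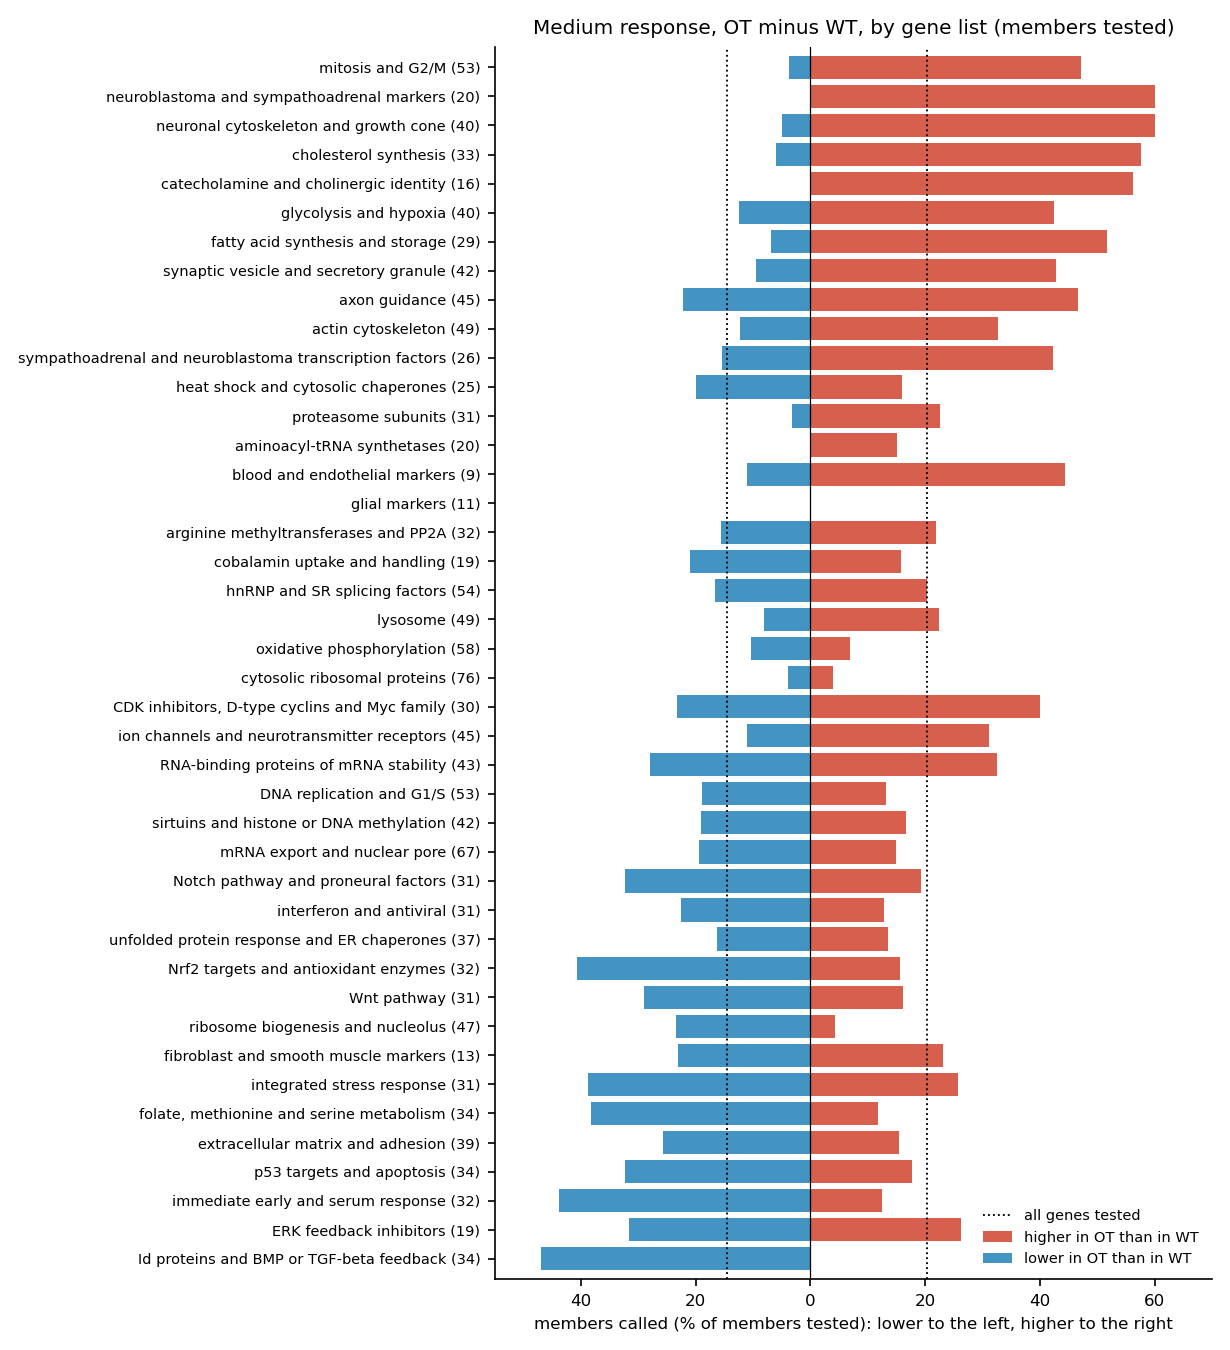
Share of the tested members of each of the 42 gene lists called higher (right) or lower (left) in the OT response than in the WT response, in percent, with the number tested in brackets and the shares over all genes (20.3% and 14.5%) as dotted lines. Neuronal cytoskeleton genes, sympathoadrenal markers and cholesterol synthesis are at the higher end, and the list of Id proteins and BMP or TGF-beta feedback has no called member on the higher side.

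More genes of lipid synthesis were called higher than lower in the OT response. Of 33 cholesterol synthesis genes, 19 were called higher and 2 lower (median 0.44), and without WT-p replicates 1 and 3 these were 20 and 0 (median 0.64). Without WT-d 2 and WT-p 2 they were 14 and 1 (median 0.32). Fdps, farnesyl diphosphate synthase, was at 13.18, 13.50, 13.07 and 13.27 in OT-d and 13.32, 13.48, 13.54 and 13.45 in OT-p, against 12.23, 12.33, 12.09 and 12.53 in WT-d and 13.80, 14.07, 13.69 and 14.08 in WT-p. WT-d was below and WT-p above all OT samples. Fdps fell by 1.51 in WT cells and its OT response of -0.16 did not pass (response difference 1.34 ± 0.16, adjusted p = 1.15e-06), and its second probe gave 0.75. Tm7sf2, a sterol reductase, differed by 2.07 ± 0.30, with an OT response of 2.49 and a WT response of 0.42 that did not pass. Of 29 fatty acid synthesis and storage genes, 15 were called higher and 2 lower (median 0.29), or 11 and 0 without WT-d 2 and WT-p 2 (median 0.21). They were led by Acss2, an acetyl-CoA synthetase, at 1.45, although its 3 probes ran from -0.15 to 1.45, and by Scd2, a stearoyl-CoA desaturase, at 1.11.

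The genes with a lower response in OT cells were led by Bambi, a decoy receptor that dampens BMP and TGF-beta signalling. It was at 8.91, 9.02, 9.17 and 9.27 in OT-d and 13.29, 13.20, 13.19 and 13.24 in OT-p, against 10.02, 9.69, 9.80 and 10.15 in WT-d and 11.79, 10.66, 11.85 and 11.03 in WT-p. OT-d was the lowest group and OT-p the highest, with no overlap between any of the 4. Bambi fell by 4.12 in OT cells and by 1.44 in WT cells, a response difference of -2.67 ± 0.25 (adjusted p = 4.55e-08), and of -3.16 without WT-p replicates 1 and 3. Id proteins, which bind basic helix-loop-helix factors and hold back differentiation, followed the same order. Id2 was at 9.20, 9.48, 9.47 and 9.53 in OT-d and 13.99, 13.83, 13.81 and 13.70 in OT-p, against 10.43, 9.57, 10.17 and 10.45 in WT-d and 12.75, 11.50, 12.06 and 12.10 in WT-p, again with no overlap. The response difference was -2.28 ± 0.26 for Id2 (adjusted p = 7.72e-07), -2.28 ± 0.39 for Id3 (adjusted p = 0.000102) and -1.79 for Id1 (adjusted p = 4.36e-09).

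For Id1 the levels were 9.29, 9.51, 9.77 and 9.58 in OT-d and 13.53, 13.58, 13.28 and 13.46 in OT-p, against 11.11, 10.89, 10.81 and 11.09 in WT-d and 13.15, 12.88, 13.10 and 13.04 in WT-p. For Id3 they were 8.17, 8.94, 7.75 and 9.10 in OT-d and 12.48, 12.34, 12.54 and 12.52 in OT-p, against 10.34, 8.83, 9.71 and 10.63 in WT-d and 12.11, 10.93, 11.32 and 11.36 in WT-p. The groups of Id1 did not overlap, and in Id3 the WT-d 2 level fell within OT-d. Smad6, an inhibitory SMAD induced by BMP signals, differed by -1.25 ± 0.15 (adjusted p = 1.43e-06). Of the 34 members of the list tested, 16 were called lower and none higher, with a median of -0.32. Without WT-p replicates 1 and 3 these were 15 and 1, and the median stayed at -0.32. The median difference between the lines was -0.40 for OT-d minus WT-d and 0.06 for OT-p minus WT-p.

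BMP-responsive promoters, those of the Id genes among them, are known for SMAD-binding GC-rich elements such as GGCGCC. The Id2 promoter (RefSeq, GRCm38.p6, minus strand, chr12:25096043-25096342) is shown with its 1 match, which reads the same on both strands, in capitals.
Id2: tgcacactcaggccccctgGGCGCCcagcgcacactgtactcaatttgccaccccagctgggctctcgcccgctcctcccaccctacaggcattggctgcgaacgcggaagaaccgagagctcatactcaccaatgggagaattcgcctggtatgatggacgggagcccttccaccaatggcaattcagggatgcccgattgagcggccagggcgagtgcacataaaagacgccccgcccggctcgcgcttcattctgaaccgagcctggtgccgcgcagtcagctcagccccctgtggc
GGCGCC was in 10 of the 23 promoters found for the list (43.5%) and in 11.9% of all promoters, again whether members were called or not.

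Osgin1 (chromosome 8, 122332154 to 122332213), an oxidative stress gene and known Nrf2 target, was at 8.94, 8.72, 8.76 and 8.88 in OT-d and 7.96, 7.76, 7.88 and 7.80 in OT-p, against 11.36, 11.34, 11.56 and 11.37 in WT-d and 7.91, 7.87, 7.74 and 8.29 in WT-p. The proliferation groups overlapped and WT-d stood above all other samples. Osgin1 rose by 0.97 in OT cells and by 3.38 in WT cells (response difference -2.41 ± 0.18, adjusted p = 3.91e-09), and its 3 probes ran from -2.41 to -0.51. Hmox1, heme oxygenase 1, also on the Nrf2 list, fell in both lines, by 2.38 in OT cells and 1.25 in WT cells, and differed by -1.13 ± 0.12. Of the 32 Nrf2 targets and antioxidant enzymes tested, 13 were called lower and 5 higher, with a median of -0.12, which was -0.10 relative to all genes with loess alone, where 7 were called lower and 6 higher.

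Ada, adenosine deaminase, was at 7.97, 8.00, 8.13 and 8.23 in OT-d and 11.80, 11.87, 11.95 and 12.01 in OT-p, against 9.87, 9.96, 9.69 and 9.89 in WT-d and 11.45, 11.27, 11.58 and 11.41 in WT-p, with no overlap between any groups. Its response difference was -2.29 ± 0.13 (adjusted p = 8.82e-11). P2ry2, a receptor for extracellular ATP and UTP, was at 7.73, 7.45, 7.64 and 7.70 in OT-d and 9.27, 9.18, 9.12 and 9.17 in OT-p, against 9.08, 8.94, 9.02 and 9.05 in WT-d and 8.57, 8.54, 8.49 and 8.36 in WT-p. P2ry2 fell by 1.52 in OT cells and rose by 0.51 in WT cells, and its groups did not overlap. Its response difference of -2.03 ± 0.087 had the smallest adjusted p of the 23 genes given with large values (7.73e-13), and its second probe gave -0.67. Galnt15, a glycosyltransferase that starts mucin-type O-glycans, differed by -2.64 ± 0.35, and by -1.97 without WT-p replicates 1 and 3. Galnt5 of the same family differed by -1.99 ± 0.61 (adjusted p = 0.0144), a value that rested on single libraries: OT-d 3 was at 7.17 and the other OT-d samples between 9.37 and 9.45, and WT-d 2 was at 9.78 and the other WT-d samples between 7.79 and 8.13. Its call was lost under 8 of 32 alternatives, among them without OT-d 3, without WT-d 2 and without WT-p 2, with values from -2.41 to -0.67 and adjusted p up to 0.327.

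The 12 genes with the largest negative values also included Snhg16, a small nucleolar RNA host gene at -1.93 ± 0.25, Prss56, a serine protease, at -1.83 ± 0.28 (-0.99 at its second probe), and Rsad2, the interferon-induced protein viperin, at -1.83 ± 0.30 (3 probes from -1.83 to -0.87). Rsad2 was at 7.81, 7.75, 7.73 and 7.73 in OT-d and 6.29, 6.48, 6.52 and 6.65 in OT-p, against 10.45, 10.44, 10.46 and 10.502 in WT-d and 6.84, 8.33, 6.53 and 7.61 in WT-p, where 3 of the 4 samples were well above background. WT-d was above all other samples, and the call did not hold with the processed signal of the scanner software (adjusted p = 0.0776). Of 31 interferon and antiviral genes, 4 were called higher (12.9%) and 7 lower (22.6%), against 20.3% and 14.5% of all genes. Their median was -0.09, and 0.08 without WT-p replicates 1 and 3, where 5 were called higher and 5 lower. The genes given by level alone on this side were Stard8, Tnfrsf19 and Tmem35a. Stard8 averaged 7.03 ± 0.28 in OT-d and 7.61 ± 0.11 in OT-p (SD, n = 4 each), and was well above background in 1 WT-d sample and no WT-p sample. Tnfrsf19, a receptor of the TNF family, averaged 6.598 ± 0.13 in OT-d, where 3 samples were well above background, 8.26 ± 0.14 in OT-p and 6.95 ± 0.23 in WT-p (SD, n = 4 each), and no WT-d sample was well above background. Tmem35a, a chaperone of nicotinic receptors, averaged 6.53 ± 0.23 in OT-d, 8.87 ± 0.02 in OT-p and 7.80 ± 0.24 in WT-p (SD, n = 4 each), and no WT-d sample was well above background.

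**Figure D5:**
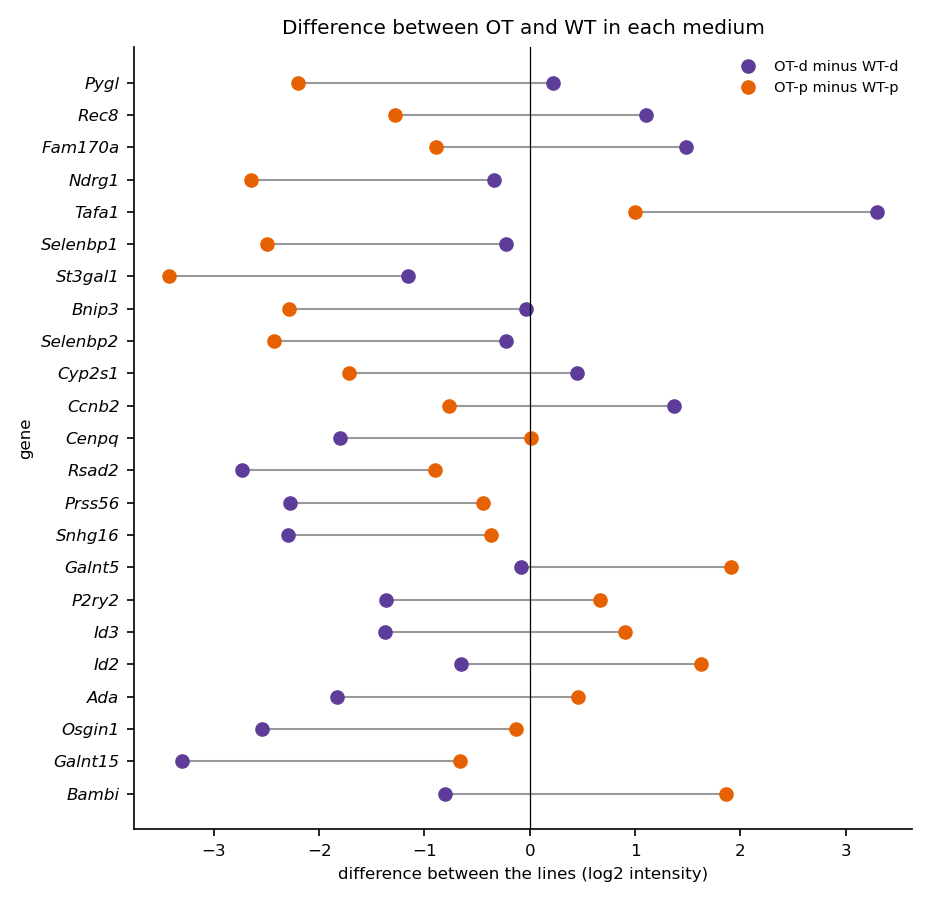
Difference between the lines, in log2 intensity, for 11 genes with large positive response differences (top) and the 12 with the largest negative ones (bottom): OT-d minus WT-d and OT-p minus WT-p. Pygl, Ndrg1 and Bnip3 differ mostly in proliferation medium, Osgin1, Galnt15 and Cenpq mostly in differentiation medium.

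Of 32 immediate early and serum response genes, 14 were called lower and 4 higher (median -0.26). Plaur, the urokinase receptor, differed by -1.02 ± 0.10 and Egr2, a zinc finger transcription factor, by -0.94 ± 0.21, against 0.98 ± 0.15 for Dusp1, a MAP kinase phosphatase. Without the samples numbered with b, Egr2 was at -0.61 with adjusted p = 0.0922. Egr1 differed by -0.94 (adjusted p = 0.00507), and the call was lost without WT-p replicates 1 and 3 (-0.65, adjusted p = 0.0505) and without WT-d 2 (-0.58, adjusted p = 0.057), and without the samples numbered with b it was at -0.40 with adjusted p = 0.318. Of 19 ERK feedback inhibitors, 5 were called higher (26.3%) and 6 lower (31.6%), against 20.3% and 14.5% of all genes. Among them Dusp2, a nuclear MAP kinase phosphatase, was at -1.68. Il17rd, an inhibitor of FGF signalling, was at -1.24, its 3 probes running from -1.24 to -0.14. Gadd45b, a growth arrest and stress gene, differed by -1.73 ± 0.14 and Ccng2, a cyclin raised in quiescent cells, by 1.64 ± 0.29. Of 34 p53 targets and apoptosis genes, 11 were called lower and 6 higher (median -0.22), against 1 and 6 with loess alone, where the median was -0.15 relative to all genes. Samd4, a translational repressor, differed by -1.10 (adjusted p = 0.00601), but by -0.76 with adjusted p = 0.0572 without WT-p replicates 1 and 3 and by 0.10 within the only slide that held all 4 groups. Slc1a6, a glutamate transporter, differed by -1.04 (adjusted p = 0.0147), by -0.83 with adjusted p = 0.0544 without WT-p 1, by -0.68 with adjusted p = 0.12 without WT-p replicates 1 and 3, and by -0.29 with adjusted p = 0.333 without the samples numbered with b.

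The hnRNP and SR splicing factors were called at about the share of all genes, 11 of 54 higher (20.4%) and 9 lower (16.7%), and 6 and 9 without WT-p replicates 1 and 3. Members with large values were Rbfox1, a neuronal splicing factor, at 1.98 ± 0.15 and Sfpq, a paraspeckle protein, at 1.77 ± 0.27, against Hnrnpdl at -1.62 ± 0.21. The second probe of Sfpq gave 0.12, and the 4 probes of Hnrnpdl ran from -1.62 to -0.22. Rbm3, a cold-inducible protein, was higher by 1.62 ± 0.21 at its brighter probe and at -0.09 at the other. Elavl1, which encodes the mRNA-stabilizing protein HuR named in the title of the study, differed by 0.44 ± 0.12 (adjusted p = 0.00467) at its brightest probe, and its 3 probes ran from -0.67 to 0.44. Tmsb4x, the actin-sequestering thymosin beta 4, rose by 1.49 in OT cells, with a WT response of -0.17 that did not pass (response difference 1.66 ± 0.11, adjusted p = 7.54e-10).

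Genes of cobalamin metabolism were called at about the share of all genes. Tcn2, the gene of transcobalamin, was at 9.00, 9.09, 9.07 and 9.09 in OT-d and 7.56, 7.59, 7.66 and 7.50 in OT-p, against 9.05, 9.01, 8.83 and 8.71 in WT-d and 7.72, 8.02, 7.69 and 8.17 in WT-p. It rose in both lines, by 1.46 in OT cells and 0.98 in WT cells, and the difference was 0.48 ± 0.14 (adjusted p = 0.0084). The labels do not say whether its probe matches the construct. Cd320, the receptor for cobalamin-loaded transcobalamin, differed by -0.71 ± 0.14 (adjusted p = 0.000485), and Mtrr, methionine synthase reductase, by -0.76 ± 0.16, though its 3 probes ran from -0.76 to 0.08. Mtr, methionine synthase, differed by -0.35 (adjusted p = 0.0338), a call lost without WT-p replicates 1 and 3 (-0.37, adjusted p = 0.0533) and when OT-d 1, OT-d 4, OT-p 2, OT-p 4, WT-d 1, WT-d 4, WT-p 2 or WT-p 3 was left out singly (-0.35 to -0.28, adjusted p up to 0.102). Mmachc, the cytosolic cobalamin chaperone, differed by 0.08 (95% interval -0.24 to 0.40, adjusted p = 0.731), and by 0.34 with adjusted p = 0.0488 without WT-d 2. Of the 19 genes of cobalamin uptake and handling tested, 3 were called higher and 4 lower, and 5 and 3 without WT-p replicates 1 and 3. Of 34 folate, methionine and serine genes, 4 were called higher and 13 lower (median -0.20), or 7 and 4 with loess alone (median -0.12 relative to all genes), with Phgdh, which starts serine synthesis, at -0.71.

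Of 4 further genes read out in every case, 1 was called. Sirt1, a deacetylase, was at -0.28 (95% interval -0.54 to -0.01, adjusted p = 0.0976), at -0.37 with adjusted p = 0.0282 without WT-p 1, and at -0.44 with adjusted p = 0.0111 without WT-p replicates 1 and 3. Ppp2ca, a catalytic subunit of PP2A, was at 0.07 (-0.17 to 0.30, adjusted p = 0.686) and Hspa5, the ER chaperone BiP, at -0.19 (-0.41 to 0.03, adjusted p = 0.181). Ddit3, the stress factor CHOP, was called at -0.45 (adjusted p = 0.0352), but was at -0.13 with adjusted p = 0.391 without WT-p replicates 1 and 3, and the call was also lost when OT-d 3, OT-d 4, OT-p 2, OT-p 3, WT-d 4, WT-p 1 or WT-p 3 was left out singly (-0.45 to -0.28, adjusted p up to 0.144). Of 37 unfolded protein response genes, 5 were called higher (13.5%) and 6 lower (16.2%), against 20.3% and 14.5% of all genes. Of the 31 integrated stress response genes, 8 were called higher (25.8%) and 12 lower (38.7%), or 6 and 9 without WT-p replicates 1 and 3. Of the 76 cytosolic ribosomal proteins, 3 were called higher and 3 lower (3.9% each), or 1 and 19 from the processed signal of the scanner software. Of the 58 oxidative phosphorylation genes, 4 were called higher (6.9%) and 6 lower (10.3%), or 1 and 12 from the processed signal. Ribosome biogenesis genes were called lower in 11 and higher in 2 of 47 (median -0.15), lower in 22 without WT-p replicates 1 and 3 (median -0.34), and lower in 2 with loess alone (median -0.14 relative to all genes).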

How the data were processed

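The members of the comparison and all gene lists were chosen with earlier results of these data known. Raw intensity for each dye, as spot signal and local background, came from the deposited scanner files (software Agilent Feature Extraction, whose version was 10.5.1.1 according to the file headers). The deposited series table holds 1 linear intensity for each probe and sample, and was used as an alternative. No spot was saturated, between 54.3 and 65.9% of spots per sample exceeded background clearly, and the number of arrays limits the precision.

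Mean signals were background corrected by normexp (offset 50), with local backgrounds marked by the software replaced by the median of the sample, then normalized by loess and Aquantile which gave log2 intensity (limma 3.58.1, statmod 1.5.0, R 4.3.3). The 0.294% of values marked as outliers were left out, so that Lss lacks 1 OT-p value. Spots were averaged to 41174 probes, named through the RefSeq table where possible (8072 kept the name in the file), and the brightest probe stood for a gene. A gene was tested if some group of the series, out of 6, had all 4 samples above background. Both dyes were fitted as separate channels, with a mean for each group, a dye term and an intraspot correlation of 0.432 over all 24 samples, followed by eBayes and Benjamini-Hochberg adjustment over the 16240 genes. Intervals are 95% and errors of response differences are SE. Fitted responses take in the intraspot correlation and can differ from differences of printed levels.

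Simulated data with 100 genes changed by 0.5 and 100 by 1 on the log2 scale were recovered to 58% and 96%, with 7 unchanged genes among the 161 calls. The simulated noise had the same SD in all groups for each gene, and few genes were changed. In the data the spread differed between groups, as for Ndrg1 (SD 0.82 in WT-p and 0.055 in OT-p), and 34.7% of genes were called. The simulated rates may therefore not carry over to the data. The genes named were the 12 with the largest value in each direction that have a symbol, are well above background in at least 3 samples of each group and are called alike without WT-p replicates 1 and 3, up to 3 in each direction whose call is then lost, up to 5 called members of each of 42 lists, up to 3 in each direction with no sample above background in a group, and 10 genes read out always. A few genes that the rule takes in are not reported here. Promoters came from the RefSeq table. Samples with the same replicate number did not deviate together (correlations from -0.117 to 0.304 over 24 pairs), so the numbers were not used as pairs. Probe positions are those of the files, on mm8.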

Additional observations from a re-analysis of the deposited data

Results flagged for a closer look

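The response to the medium differed between the lines by a test of the difference itself in 3290 genes called higher and 2351 called lower in OT cells. The same test (limma) called each of these genes with large values, on the log2 scale. Those higher were Pygl at 2.42, Rec8 at 2.38, Fam170a at 2.38, Ndrg1 at 2.31, Tafa1 at 2.29, Selenbp1 at 2.27, St3gal1 at 2.27, Bnip3 at 2.24, Selenbp2 at 2.20, Cyp2s1 at 2.16 and Ccnb2 at 2.14. Those lower were Bambi at -2.67, Galnt15 at -2.64, Osgin1 at -2.41, Ada at -2.29, Id2 at -2.28, Id3 at -2.28, P2ry2 at -2.03, Galnt5 at -1.99, Snhg16 at -1.93, Prss56 at -1.83, Rsad2 at -1.83 and Cenpq at -1.81.

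Single samples lay far from the other 3 of their group, with a gap to the nearest that took up most of the range (Dixon's 95% limit), in 9 of 180 groups of the 45 genes looked at, and chance flags about 1 in 20. WT-d 4 was the high one in 3 cell cycle genes, with Ccnb2 at 9.48 and the others at 7.96 to 7.97, Pclaf at 9.51 and the others at 7.22 to 7.54, and Aurka at 10.7 and the others at 8.90 to 9.12. Aurka was also low in OT-p 2, at 14.4, with the others at 14.6. Galnt5 was low in OT-d 3, at 7.17, with the others at 9.37 to 9.45, and high in WT-d 2, at 9.78, with the others at 7.79 to 8.13. Slc1a6 was low in OT-d 4, at 6.21, with the others at 7.65 to 7.89. Bnip3 was low in OT-d 1, at 14.03, and Osgin1 high in WT-d 3, at 11.56, each with its other 3 samples within a narrow range.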

How the results depend on the processing

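The 3290 higher and 2351 lower calls stayed within 1.5 times under all alternatives run but 1: with loess alone and no Aquantile, 3950 were higher and 917 lower, 81.2% of calls being higher, against 58.3%, and the median over all genes moved to 0.109, so that changes are relative to it there. Other settings gave 3001 and 2822 from the processed signal, 3225 and 2246 from the series table, and 2443 and 1572 with the marked local backgrounds as given, an alternative chosen after seeing the data. Leaving out single samples gave 2777 to 3596 higher and 1982 to 2605 lower calls, 4774 to 6201 in all. Without WT-p replicates 1 and 3 the numbers were 3448 and 2394, without WT-d 2 and WT-p 2, chosen after seeing the data, 3472 and 2573, and without the samples numbered with b, in all groups, 2556 and 1952. With the replicate number as a replicate block, for which the dye term had to be dropped since dye follows the number, 3317 were higher and 2410 lower, 5727 in all. The numbers were not shown to pair the samples, and of the genes named or listed the block changed 1 call, that of Sirt1 (-0.31, adjusted p = 0.039).

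Of the 5617 called genes with a value within slide 3, the only slide with all 4 groups, 5530 had the same sign there, as had 558 of 560 over 2-fold. That value came from samples that also gave the calls, with WT-d 2 and WT-p 2 as its only WT samples. The agreement was thus partly fixed in advance and is no separate check on the slides. Of the genes named by the rule or by a list, the sign turned within slide 3, where there is no test, in Samd4 (0.10), Sel1l (0.17), Ctsb (0.061) and Ddit3 (0.0089), and the cause was not tested. Of the 23 genes with large values given in the text, 21 kept their call under all 32 alternatives and Galnt5 and Rsad2 did not. The 23 genes were picked for large values in these same data. Their selection also required a call without the WT-p replicates that were left out together, which is among the alternatives. Testing every probe singly, also among them, gives the probe that stood for a gene the same value. The count of 21 was thus partly fixed in advance. Probes of 148 of 5791 genes with several probes were called in both directions. Levels of genes near background are limited by the normexp offset.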

Other observations

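The gene lists not yet described were called as follows, in the order higher and lower in the OT response than in the WT response, against 20.3% and 14.5% of all genes. Of the 49 actin cytoskeleton genes tested, 16 and 6 were called (median difference 0.18 on the log2 scale, as are the medians that follow), of 26 sympathoadrenal transcription factors 11 and 4 (median 0.18), and of 30 CDK inhibitors, D-type cyclins and Myc family genes 12 and 7 (median 0.02). Ion channels and neurotransmitter receptors had 14 and 5 of 45, and lysosome genes 11 and 4 of 49. Proteasome subunits had 7 and 1 of 31 (median 0.14) and aminoacyl-tRNA synthetases 3 and 0 of 20 (median 0.13). The transcription factors had 9 and 5 (median 0.08), proteasome subunits 3 and 2 (median 0.07) and the synthetases 2 and 0 (median 0.05) without WT-p replicates 1 and 3.

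Extracellular matrix and adhesion genes had 6 and 10 of 39 (median -0.20). Among them Fbln2, a basement membrane protein, differed by -1.28 ± 0.18 (log2, SE) and Col1a1, the alpha 1 chain of type I collagen, by -1.02 ± 0.11 (limma adjusted p = 1.4e-05 and 2.0e-07). Wnt pathway genes had 5 and 9 of 31 (median -0.15) and Notch and proneural genes 6 and 10 of 31 (median -0.09). Extracellular matrix genes had 7 and 5 (median -0.08) and Notch genes 7 and 5 without WT-p replicates 1 and 3, so that neither had more lower than higher calls. With loess alone, where calls of all genes shifted to higher, matrix genes had 6 and 6, Notch genes 5 and 5 and Wnt genes 6 and 4. Heat shock genes had 4 and 5 of 25, and the sirtuin list, which also holds enzymes of histone or DNA methylation, had 7 and 8 of 42. RNA-binding proteins of mRNA stability had 14 and 12 of 43, PP2A subunits together with arginine methyltransferases 7 and 5 of 32 (4 and 4 without WT-p replicates 1 and 3), and nuclear pore and mRNA export genes 10 and 13 of 67.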
